A study of Homo sapiens with 6 samples.

Results

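The levels of 49 genes of the lysosome and of autophagy were followed in 22Rv1 cells, an established human prostate carcinoma line, after knockdown of ZMYND11, a chromatin reader of methylated histone H3.3. The genes were taken by symbol as a list of lysosomal hydrolases, lysosomal membrane proteins, the TFEB family and autophagy factors, and 49 of 49 were found among the 35322 gene symbols counted. The 6 RNA libraries fell into 3 groups of 2, namely cells labelled WT (here control), a first knockdown (ZM11-kd1) and a second knockdown (ZM11-kd2), all grown untreated in RPMI1640 with serum. In the study's methods, ZMYND11 was silenced by shRNAs carried on lentivirus with puromycin selection, and the sequenced controls are described by the study as carrying a control shRNA, although their label is WT. Which shRNA belongs to which knockdown was not settled here. The labels do not say that libraries of a group came from separate cultures, so p-values measure the spread between these libraries, which may be technical.

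The lysosome is an acidic compartment in which proteases, glycosidases and lipases break down material delivered by endocytosis or by autophagy. A proton pump in its membrane, the V-ATPase, keeps it acidic. Autophagy encloses cytoplasmic cargo in a double membrane, to which small proteins of the ATG8 family are attached, and cargo receptors such as SQSTM1 bind both the cargo and ATG8. The transcription factors TFEB, TFE3 and MITF bind E-box elements in promoters of many of these genes and are held out of the nucleus by the kinase mTORC1 when nutrients are plentiful.

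The libraries held between 26844128 and 38193748 counts. Levels are given as normalized CPM, which are counts scaled to library size with TMM factors (CPM), and differences as log2 fold changes with standard errors from one edgeR fit of all 6 libraries (n = 2 per group). A gene said to rise or fall by a value passed the test, and the value is then a log2 fold change. ZMYND11 itself had 141 and 135 normalized CPM in control cells, 27.7 and 26.1 in ZM11-kd1, and 21.6 and 22.7 in ZM11-kd2, so that all knockdown libraries lay below both controls (log2 fold changes -2.35 and -2.64, adjusted p = 5.00e-13 and 3.78e-13, edgeR). Of 4 leukocyte and macrophage markers, CD3E was at 0 in every library, and the summed level was 0.822 to 1.42 CPM in control cells, 1.96 to 2.09 in ZM11-kd1 and 3.71 to 4.48 in ZM11-kd2. Of these, the macrophage markers CD14 (16 to 117 counts) and CSF1R (3 to 31 counts) rose by 0.81 and 1.62 in ZM11-kd1 and by 2.09 and 2.54 in ZM11-kd2, while PTPRC, the general leukocyte marker, had 0.31 and -0.19 without passing. The 3 endothelial markers together stayed at or below 0.196 CPM. The 4 fibroblast markers, of which COL1A1 made up most, summed to 32.2 to 34.6 CPM in control cells, 86.4 to 86.9 in ZM11-kd1 and 44 to 44.5 in ZM11-kd2. The prostate luminal markers KLK2, FOLH1, HOXB13, EPCAM, KRT8 and KRT18 were detected in every library, as was KLK3, which fell in both knockdowns. The part of these markers in the results was not tested. In RNA from whole cultures, fewer cells that express a gene and less of its RNA per cell cannot be told apart.

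Most lysosome and autophagy genes rose in both knockdowns. In ZM11-kd1, 35 of the 49 genes rose (71.4%) and 9 fell (18.4%) against control at an adjusted p under 0.05, while among the 16510 genes tested 38.2% rose and 39.8% fell (78% in either direction). The other 5 did not pass. In ZM11-kd2, 38 rose (77.6%) and 6 fell (12.2%), beside 36.5% and 36.9% of all genes tested (73.4% in either direction), and 5 did not pass. With a change of at least 1.5-fold as a second requirement, 30 genes rose and 4 fell in ZM11-kd1, beside 28.6% and 31.2% of all genes, and 26 rose and 5 fell in ZM11-kd2, beside 23.8% and 27.3%. The median log2 fold change of the 49 genes was 0.79 in ZM11-kd1 and 0.67 in ZM11-kd2, and that of all genes was -0.030 and -0.028. All 49 genes passed the filter on low counts. Strand use in the counting is not stated, and genes on the other strand share 55.7% of the canonical transcript of SQSTM1, 37.7% of BECN1, 29.95% of ATG7, 28.3% of WIPI1, 24.1% of CTSA and 22.2% of ATG14, so that reads of such pairs cannot be told apart. Both comparisons use the same control libraries, so they are not independent of each other.

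**Figure D1:**
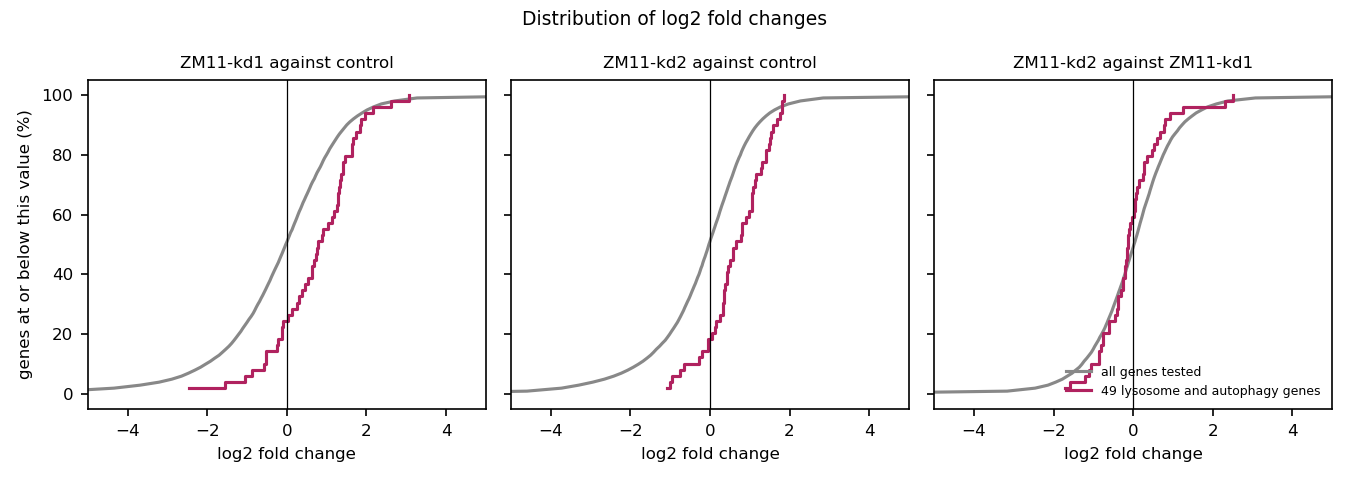
Cumulative share of genes (y axis, percent) at or below each log2 fold change (x axis), for all genes tested (grey) and for the 49 lysosome and autophagy genes (red), in the 3 comparisons. Against control the red line runs to the right of the grey line over most of its course, with medians of 0.79 and 0.67 beside -0.030 and -0.028, and between the knockdowns the medians are -0.12 and 0.022.

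The size of these differences depended on the scaling of the libraries. With library totals alone, the median of all genes moved to -0.38 in ZM11-kd1 and -0.20 in ZM11-kd2, and the medians of the 49 genes to 0.44 and 0.49, a shift that all genes share. On that scale 31 of the 49 genes rose and 14 fell in ZM11-kd1, beside 27.8% and 51.0% of all genes, and 35 rose and 8 fell in ZM11-kd2, beside 30.1% and 43.7%.
As a share of all counts, which is the scale of library totals, the 49 genes held 0.549% of the counts in each control library, 0.987% and 0.988% in ZM11-kd1, and 0.874% and 0.859% in ZM11-kd2. CD63 alone held 0.0747% and 0.0756% in control cells and 0.192% and 0.197% in ZM11-kd1, but 0.0769% and 0.0711% in ZM11-kd2.

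The 3 transcription factors did not move alike. TFE3 had 26.6 and 28.2 normalized CPM in control cells, 72.1 and 72.9 in ZM11-kd1, and 45.7 and 50.2 in ZM11-kd2. It rose in both knockdowns, 2.65-fold in ZM11-kd1 (log2 fold change 1.40, standard error 0.07, adjusted p = 1.67e-10, edgeR) and 1.75-fold in ZM11-kd2 (log2 fold change 0.81, standard error 0.07, adjusted p = 1.24e-07, edgeR), and no library of one group overlapped those of another. TFEB was the least abundant of the 3 in control cells per kilobase of transcript. Its libraries held 8.22 and 10.6 normalized CPM in control cells, 16.0 and 16.0 in ZM11-kd1, and 16.8 and 13.1 in ZM11-kd2. All knockdown libraries lay above both controls while the knockdowns overlapped each other, with log2 fold changes of 0.76 (standard error 0.14, adjusted p = 0.000182, edgeR) and 0.67 (standard error 0.14, adjusted p = 0.000656, edgeR). When library-specific trends with GC and length were removed, the value in ZM11-kd1 was 0.18 and did not pass. MITF, the member best known from pigment cells, had 28.7 and 30.3 normalized CPM in control cells, 21.0 and 20.3 in ZM11-kd1, and 99.6 and 106 in ZM11-kd2. It went in opposite directions, lower in ZM11-kd1 (log2 fold change -0.52, standard error 0.07, adjusted p = 1.39e-05, edgeR) and 3.48-fold higher in ZM11-kd2 (log2 fold change 1.80, standard error 0.07, adjusted p = 1.32e-11, edgeR). The fall in ZM11-kd1 did not pass once GC and length trends were removed (-0.027), and the rise in ZM11-kd2 passed under every setting tried.

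The factors of the TFEB family recognise the E-box CACGTG, most often as the core of the longer form TCACGTG, and the promoters of the list were searched for both on either strand. RefSeq windows from 250 bases before to 50 after the start of the gene (GRCh38.p14) were given for 41 of the 49 genes. CACGTG was found in 9 of them (22.0%), beside 9.34% of the 12463 windows of genes tested here and 7.28% of all 27305 windows of that length. The 7-letter form, which contains the shorter one, was in the same 9 (22.0%), beside 5.30% and 3.76%. Of the 102 windows of other genes of the pathway, listed further on, 23 held CACGTG (22.5%) and 21 the 7-letter form (20.6%). The 9 matches are printed below 5′ to 3′ in the direction of the gene, with the E-box in capitals, because this sequence is the one known to be recognised by the TFEB family.
LAMP1: ggccgggtCACGTGggtccagg
MCOLN1: gaggcggtCACGTGaggggctc
CTSA: aagactgtCACGTGgcgccgga
CTSD: gccgcgccCACGTGaccggtcc
CTSF: ataacaagCACGTGatagaggt
GAA: ggccgcgtCACGTGacccaccg
NEU1: tgcgtgatCACGTGggaggaga
ATP6V0D1: cttatggtCACGTGaggcgctt
ATG14: caaaatccCACGTGactggctc
These lie at chr13:113297039-113297060 on the plus strand (LAMP1), chr19:7522575-7522596 on the plus strand (MCOLN1), chr20:45891285-45891306 on the plus strand (CTSA), chr11:1763961-1763982 on the minus strand (CTSD), chr11:66568716-66568737 on the minus strand (CTSF), chr17:80101497-80101518 on the plus strand (GAA), chr6:31862934-31862955 on the minus strand (NEU1), chr16:67481203-67481224 on the minus strand (ATP6V0D1) and chr14:55411838-55411859 on the minus strand (ATG14). The LAMP1 window held 6 copies of CACGTG, the windows of MCOLN1, CTSA, CTSF and GAA 2 each, and the other four 1 each, and where there were several, the first with the 7-letter form is shown. In MCOLN1, GAA and ATP6V0D1 the stretch shown reads the same on both strands over at least 8 bases. The 9 genes with the E-box had log2 fold changes with a median of 1.33 in ZM11-kd1 (-0.53 to 2.61) and 1.05 in ZM11-kd2 (-0.062 to 1.81), and the 32 without it 0.70 (-2.46 to 3.07) and 0.54 (-1.08 to 1.86). Genes with the E-box were thus found both among those that rose, such as CTSD, and among those that fell or did not pass, such as ATG14 and GAA. A match is a stretch of letters, and binding was not measured here.

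Of the 6 genes for lysosomal membrane proteins and lipid transport, 5 rose in ZM11-kd1 (83.3%, beside 38.2% of all genes tested) and 6 in ZM11-kd2 (100%, beside 36.5%). The role groups hold 3 to 8 genes each, so that 1 gene moves a share widely. LAMP1, a heavily glycosylated protein that lines the lysosomal membrane, had 246 and 249.5 normalized CPM in control cells, 772 and 801 in ZM11-kd1, and 525 and 501 in ZM11-kd2. Its libraries separated into 3 levels without overlap, 3.17-fold above control in ZM11-kd1 (log2 fold change 1.67, standard error 0.05, adjusted p = 1.44e-12, edgeR) and 2.07-fold in ZM11-kd2 (log2 fold change 1.05, standard error 0.05, adjusted p = 2.06e-10, edgeR). The related LAMP2 had log2 fold changes of 0.12 in ZM11-kd1 and 0.90 in ZM11-kd2. The value in ZM11-kd1 passed narrowly (adjusted p = 0.0469, edgeR), and it went from -0.23 with library totals alone to 0.82 with GC and length trends removed, passing in both. It was lost on leaving out any 1 of the 4 libraries compared (0.11 to 0.13).
CD63, a tetraspanin of late endosomes and secreted vesicles, was the most abundant gene of the list per kilobase of transcript in all 3 groups. It had 659 and 673 normalized CPM in control cells, 2155 and 2251 in ZM11-kd1, and 776 and 701 in ZM11-kd2. The ZM11-kd1 libraries stood far above the other four, with a log2 fold change of 1.73 (standard error 0.06, adjusted p = 2.76e-12, edgeR), or 1.0025 with GC and length trends removed, while in ZM11-kd2 it was 0.15 (adjusted p = 0.0279, edgeR), which fell below 0 with library totals alone (-0.022) and with GC and length trends removed (-0.003). The call was also lost without control replicate 1 (0.13), control replicate 2 (0.17) or ZM11-kd2 replicate 1 (0.072).
The partners NPC1 and NPC2 export cholesterol from the lysosome. NPC1, the membrane protein, had 29.8 and 26.7 normalized CPM in control cells, 27.5 and 24.4 in ZM11-kd1, and 57.2 and 66.5 in ZM11-kd2. Control and ZM11-kd1 libraries overlapped and the ZM11-kd2 libraries lay above both, with log2 fold changes of -0.12 (adjusted p = 0.263, edgeR) and 1.13 (standard error 0.09, adjusted p = 3.92e-08, edgeR). The value in ZM11-kd1 passed as lower with library totals alone (-0.47) and as higher with GC and length trends removed (0.25). NPC2, the soluble partner, rose by 1.42 in ZM11-kd1 and by 0.37 in ZM11-kd2, or by 0.94 and 0.20 with GC and length trends removed. MCOLN1, a calcium channel of the lysosomal membrane, rose by 1.33, or 0.67 with GC and length trends removed, in ZM11-kd1 and by 0.59 in ZM11-kd2.

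Among 8 proteases, 7 rose (87.5%) and 1 fell (12.5%) in ZM11-kd1, beside 38.2% and 39.8% of all genes tested. In ZM11-kd2 6 rose (75%) and 2 fell (25%), beside 36.5% and 36.9%. CTSD, the main aspartic protease of lysosomes, changed most of these. It had 54.3 and 52.5 normalized CPM in control cells, 318 and 336 in ZM11-kd1, and 208 and 165 in ZM11-kd2. The 3 groups did not overlap, and the increase was 6.12-fold in ZM11-kd1 (log2 fold change 2.61, standard error 0.09, adjusted p = 3.19e-12, edgeR) and 3.50-fold in ZM11-kd2 (log2 fold change 1.81, standard error 0.09, adjusted p = 1.88e-10, edgeR). With GC and length trends removed, the log2 fold change in ZM11-kd1 was 1.86. On the same strand, 62.1% of the bases of its annotated canonical transcript are shared with a readthrough gene, and how such reads were assigned is not stated.
CTSC, a dipeptidyl peptidase that activates serine proteases, fell in both knockdowns. Its libraries held 26.3 and 24.4 normalized CPM in control cells, 11.8 and 12.6 in ZM11-kd1, and 12.7 and 12.6 in ZM11-kd2. Both knockdowns stood at about the same level under the controls, with log2 fold changes of -1.05 (standard error 0.10, adjusted p = 1.02e-07, edgeR) and -1.002 (standard error 0.09, adjusted p = 2.17e-07, edgeR). The cysteine protease CTSL had 70.4 and 75.6 normalized CPM in control cells, 99.5 and 99.5 in ZM11-kd1, and 46.9 and 45.6 in ZM11-kd2. It rose in ZM11-kd1 (log2 fold change 0.45, standard error 0.06, adjusted p = 7.04e-06, edgeR) and fell in ZM11-kd2 (log2 fold change -0.66, standard error 0.06, adjusted p = 1.93e-07, edgeR). When only library totals were used, the value in ZM11-kd1 was 0.092 and did not pass, and with GC and length trends removed it was 0.26.
The other five rose in both knockdowns. CTSA, which protects NEU1 and GLB1 in a common complex, rose by log2 fold changes of 1.37 in ZM11-kd1 and 1.30 in ZM11-kd2, and TPP1, a tripeptidyl peptidase, by 1.13 and 0.97. The cysteine proteases CTSF, CTSZ and CTSB rose by 1.29, 0.89 and 0.64 in ZM11-kd1, and by 0.43, 0.44 and 0.43 in ZM11-kd2. With GC and length trends removed, CTSF and CTSZ rose by 0.77 and 0.58 in ZM11-kd1.

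Of the 7 glycosidases, 3 rose (42.9%) and 2 fell (28.6%) in ZM11-kd1, and 3 rose and 3 fell (42.9% each) in ZM11-kd2. These shares lie near those of all genes tested (38.2% and 39.8%, then 36.5% and 36.9%) and are no result about the group. NEU1, the lysosomal sialidase, had 46.9 and 46.9 normalized CPM in control cells, 101 and 93.0 in ZM11-kd1, and 139 and 141 in ZM11-kd2. It was 2.06-fold higher in ZM11-kd1 (log2 fold change 1.05, standard error 0.06, adjusted p = 6.52e-10, edgeR) and 2.98-fold higher in ZM11-kd2 (log2 fold change 1.58, standard error 0.06, adjusted p = 1.54e-11, edgeR), without overlap between any groups. HEXA, which degrades gangliosides, rose from a low level by 1.18 and 1.27, and GLB1, the beta-galactosidase used as a stain for senescent cells, by 0.91 and 0.78. Same-strand genes share 12.9% of the canonical transcript of HEXA, 15.3% of that of NAGLU and 19.0% of that of the protease TPP1.
GLA, the alpha-galactosidase missing in Fabry disease, went the other way. Its libraries held 21.8 and 22.2 normalized CPM in control cells, 7.24 and 7.87 in ZM11-kd1, and 13.99 and 12.3 in ZM11-kd2. It fell in ZM11-kd1 (log2 fold change -1.54, standard error 0.11, adjusted p = 6.98e-09, edgeR) and less in ZM11-kd2 (log2 fold change -0.74, standard error 0.10, adjusted p = 1.26e-05, edgeR). GUSB, the beta-glucuronidase, fell by 0.23 in ZM11-kd1 (by 0.53 with GC and length trends removed) and by 1.08 in ZM11-kd2, but it has 7 pseudogene symbols whose summed counts were 28.5% to 71.2% of its own, and how reads common to them were assigned is not stated. GAA, which breaks down glycogen, had log2 fold changes of -0.091 and -0.062 and did not pass in either knockdown. In ZM11-kd1 GAA passed as lower with library totals alone (-0.45), GC and length trends removed (-0.49), at least 10 counts in every library (-0.13) or only the groups compared (-0.090), and in ZM11-kd2 with library totals alone (-0.23). NAGLU, which acts on heparan sulfate, stood at 0.029 in ZM11-kd1 without passing, but passed as lower there with library totals alone (-0.33) or GC and length trends removed (-0.63). It fell by 0.27 in ZM11-kd2, a call that was lost without ZM11-kd2 replicate 2 (-0.13) or without control replicate 2 (-0.19), and was -0.42 without ZM11-kd2 replicate 1.

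The 4 genes of lipid breakdown rose in both knockdowns with 1 exception in ZM11-kd1 (75% and 100%, beside 38.2% and 36.5% of all genes tested). PSAP, the precursor of the saposins that help enzymes reach membrane lipids, was second to CD63 in level per kilobase of transcript. It had 685 and 695 normalized CPM in control cells, 1700.4 and 1688 in ZM11-kd1, and 1453 and 1404 in ZM11-kd2. The rise was 2.46-fold in ZM11-kd1 (log2 fold change 1.30, standard error 0.05, adjusted p = 8.33e-12, edgeR) and 2.07-fold in ZM11-kd2 (log2 fold change 1.05, standard error 0.05, adjusted p = 1.22e-10, edgeR). LIPA, the acid lipase that frees cholesterol from its esters, had 52.4 and 48.7 normalized CPM in control cells, 45.7 and 48.0 in ZM11-kd1, and 90.2 and 87.4 in ZM11-kd2. The ZM11-kd2 libraries were the ones above the controls, with log2 fold changes of -0.11 in ZM11-kd1 (adjusted p = 0.132, edgeR) and 0.81 in ZM11-kd2 (standard error 0.06, adjusted p = 2.94e-08, edgeR). In ZM11-kd1 LIPA passed as lower with library totals alone (-0.47) or at least 10 counts in every library (-0.16). The acid ceramidase ASAH1 rose by 0.62 in ZM11-kd1 and 0.36 in ZM11-kd2 (0.18 with GC and length trends removed), and the thioesterase PPT1 by 0.52 and 0.34.

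All 4 genes of the proton pump rose by more than 1.5-fold in both knockdowns, beside 28.6% and 23.8% of all genes tested. ATP6V0D1, a subunit of the part that lies in the membrane, had 60.8 and 55.6 normalized CPM in control cells, 222 and 233 in ZM11-kd1, and 205 and 191 in ZM11-kd2. It rose 3.90-fold in ZM11-kd1 (log2 fold change 1.96, standard error 0.06, adjusted p = 1.94e-12, edgeR) and 3.40-fold in ZM11-kd2 (log2 fold change 1.77, standard error 0.06, adjusted p = 8.90e-12, edgeR). With GC and length trends removed the value in ZM11-kd1 was 1.32. ATP6V1A, the subunit that hydrolyses ATP, had 128 and 123 normalized CPM in control cells, 219 and 216 in ZM11-kd1, and 275 and 251 in ZM11-kd2. The rise was 2.09-fold over control in ZM11-kd2 (log2 fold change 1.07, standard error 0.06, adjusted p = 5.07e-10, edgeR) beside 1.73-fold in ZM11-kd1 (log2 fold change 0.79, standard error 0.06, adjusted p = 8.34e-09, edgeR). The order of the knockdowns in ATP6V1A turned with GC and length trends removed (0.28 as fitted and -0.16 then, ZM11-kd2 against ZM11-kd1), when the value in ZM11-kd1 against control was 1.26. The accessory subunit ATP6AP1 rose by log2 fold changes of 1.87 and 1.48, and the regulatory subunit ATP6V1H by 1.26 and 1.42.

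Of the 6 genes that start autophagy and supply its membrane, 2 rose (33.3%) and 4 fell (66.7%) in ZM11-kd1, and 2 rose (33.3%) and 1 fell (16.7%) in ZM11-kd2. The shares that rose are near the 38.2% and 36.5% of all genes tested, and those that fell stand beside 39.8% and 36.9%. ATG9A, which moves lipids between the leaflets of the growing membrane, had 28.5 and 30.1 normalized CPM in control cells, 5.09 and 5.57 in ZM11-kd1, and 25.4 and 35.0 in ZM11-kd2. In ZM11-kd1 it fell to 0.182 times the control level (log2 fold change -2.46, standard error 0.15, adjusted p = 8.86e-10, edgeR), while the ZM11-kd2 libraries lay on either side of the controls (log2 fold change 0.043, adjusted p = 0.757, edgeR). That value passed as higher without ZM11-kd2 replicate 1 (0.25) and was -0.20 without ZM11-kd2 replicate 2. A readthrough gene on the same strand shares 48.6% of the bases of its canonical transcript. WIPI2, which binds the lipid PI3P on the early membrane, had 98.5 and 95.4 normalized CPM in control cells, 156 and 153 in ZM11-kd1, and 118 and 115 in ZM11-kd2. It rose in ZM11-kd1 (log2 fold change 0.67, standard error 0.05, adjusted p = 2.04e-08, edgeR) and less in ZM11-kd2 (log2 fold change 0.26, standard error 0.05, adjusted p = 0.000413, edgeR), where library totals alone gave 0.093 without a call.
ULK1, the kinase that starts the process, fell by 0.57 in ZM11-kd1 and by 0.96 in ZM11-kd2. WIPI1 fell by 0.86 in ZM11-kd1 and had a log2 fold change of -0.20 in ZM11-kd2 that did not pass, except with library totals alone (-0.37) or GC and length trends removed (-0.31). The lipid kinase complex gave 1 gene in each direction in ZM11-kd1, where BECN1 rose by 0.37 and ATG14 fell by 0.53. In ZM11-kd2 BECN1 rose by 0.34 and ATG14 stood at -0.042 without passing. With library totals alone BECN1 passed in neither knockdown (0.014 and 0.17), and with GC and length trends removed ATG14 did not pass in ZM11-kd1 (-0.067).

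Of the 4 genes that attach ATG8 to lipid, 3 rose in ZM11-kd1 (75%) and 4 in ZM11-kd2 (100%), beside 38.2% and 36.5% of all genes tested. ATG5, part of the complex that places ATG8 on the membrane, had 51.2 and 51.5 normalized CPM in control cells, 127 and 129 in ZM11-kd1, and 122 and 108 in ZM11-kd2. It rose 2.49-fold in ZM11-kd1 (log2 fold change 1.32, standard error 0.07, adjusted p = 1.27e-10, edgeR) and 2.24-fold in ZM11-kd2 (log2 fold change 1.16, standard error 0.06, adjusted p = 8.14e-10, edgeR). ATG12, which is joined to ATG5, rose by 0.74 and 1.08. With GC and length trends removed it rose by 1.17 in ZM11-kd1, and the order of the knockdowns turned (0.35 as fitted and -0.19 then). ATG7, the enzyme that activates both ATG12 and ATG8, had 19.6 and 19.1 normalized CPM in control cells, 21.3 and 25.03 in ZM11-kd1, and 25.5 and 29.1 in ZM11-kd2. The groups did not overlap, with log2 fold changes of 0.26 (standard error 0.10, adjusted p = 0.0296, edgeR) and 0.50 (standard error 0.10, adjusted p = 0.000384, edgeR), and the first went from -0.097 with library totals alone to 0.65 with GC and length trends removed. It was also lost without control replicate 1 (0.27), control replicate 2 (0.23) or ZM11-kd1 replicate 2 (0.14). ATG16L1, which brings the complex to the membrane, had log2 fold changes of 0.30 in ZM11-kd1, which did not pass, and 0.57 in ZM11-kd2, which passed. The first passed with GC and length trends removed (0.44), without a filter (0.30), with only the groups compared (0.30) or without control replicate 1 (0.42), and the second was 0.35 without ZM11-kd2 replicate 2.

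The 4 ATG8 genes all rose in ZM11-kd1 (100%), and 3 rose in ZM11-kd2 (75%), beside the same 38.2% and 36.5%. GABARAPL2 had 84.1 and 84.8 normalized CPM in control cells, 369.7 and 393 in ZM11-kd1, and 244 and 206 in ZM11-kd2. It rose 4.51-fold in ZM11-kd1 (log2 fold change 2.17, standard error 0.07, adjusted p = 2.66e-12, edgeR) and 2.67-fold in ZM11-kd2 (log2 fold change 1.41, standard error 0.07, adjusted p = 2.93e-10, edgeR), with no overlap between groups. MAP1LC3B, whose lipid-bound form is the usual marker of autophagosomes, had 187 and 187 normalized CPM in control cells, 579.8 and 576 in ZM11-kd1, and 549 and 511 in ZM11-kd2. Its increase was 3.09-fold in ZM11-kd1 (log2 fold change 1.63, standard error 0.05, adjusted p = 2.24e-12, edgeR) and 2.84-fold in ZM11-kd2 (log2 fold change 1.504, standard error 0.05, adjusted p = 8.55e-12, edgeR). GABARAPL1 rose by log2 fold changes of 1.64 and 1.70.
GABARAP was at the bottom of the list in control cells, with 28 and 26 counts there, 85 and 113 in ZM11-kd1, and 33 and 34 in ZM11-kd2. It rose in ZM11-kd1 (log2 fold change 1.84, standard error 0.30, adjusted p = 6.61e-05, edgeR), and in ZM11-kd2 the log2 fold change was 0.12 with a standard error of 0.35 (adjusted p = 0.757, edgeR). A readthrough gene on the same strand shares 52.4% of its canonical transcript, and how the reads of that stretch were counted is not stated.

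Of the 3 cargo receptors, 2 rose (66.7%) and 1 fell (33.3%) in ZM11-kd1, beside 38.2% and 39.8% of all genes tested, and 3 rose in ZM11-kd2, beside 36.5%. OPTN, a receptor for ubiquitin-tagged mitochondria and bacteria, had the highest mean log2 fold change of the list over both comparisons with control. Its libraries held 5.65 and 5.99 normalized CPM in control cells, 47.2 and 50.9 in ZM11-kd1, and 22.6 and 19.7 in ZM11-kd2. From a low control level it rose 8.41-fold in ZM11-kd1 (log2 fold change 3.07, standard error 0.10, adjusted p = 2.76e-12, edgeR) and 3.63-fold in ZM11-kd2 (log2 fold change 1.86, standard error 0.11, adjusted p = 1.10e-09, edgeR). SQSTM1, the receptor p62, which is itself consumed by autophagy, had 125 and 123 normalized CPM in control cells, 348 and 328 in ZM11-kd1, and 348 and 369.6 in ZM11-kd2. Knockdown libraries of both kinds overlapped at about the same level, 2.73-fold above control in ZM11-kd1 (log2 fold change 1.45, standard error 0.06, adjusted p = 9.26e-12, edgeR) and 2.90-fold in ZM11-kd2 (log2 fold change 1.53, standard error 0.06, adjusted p = 9.85e-12, edgeR). NBR1, a related receptor, had 182 and 192 normalized CPM in control cells, 156 and 157 in ZM11-kd1, and 238 and 240.4 in ZM11-kd2. It fell in ZM11-kd1 (log2 fold change -0.25, standard error 0.05, adjusted p = 0.000425, edgeR) and rose in ZM11-kd2 (log2 fold change 0.36, standard error 0.05, adjusted p = 1.97e-05, edgeR), and with GC and length trends removed the value in ZM11-kd1 passed as higher (0.19).

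**Figure D2:**
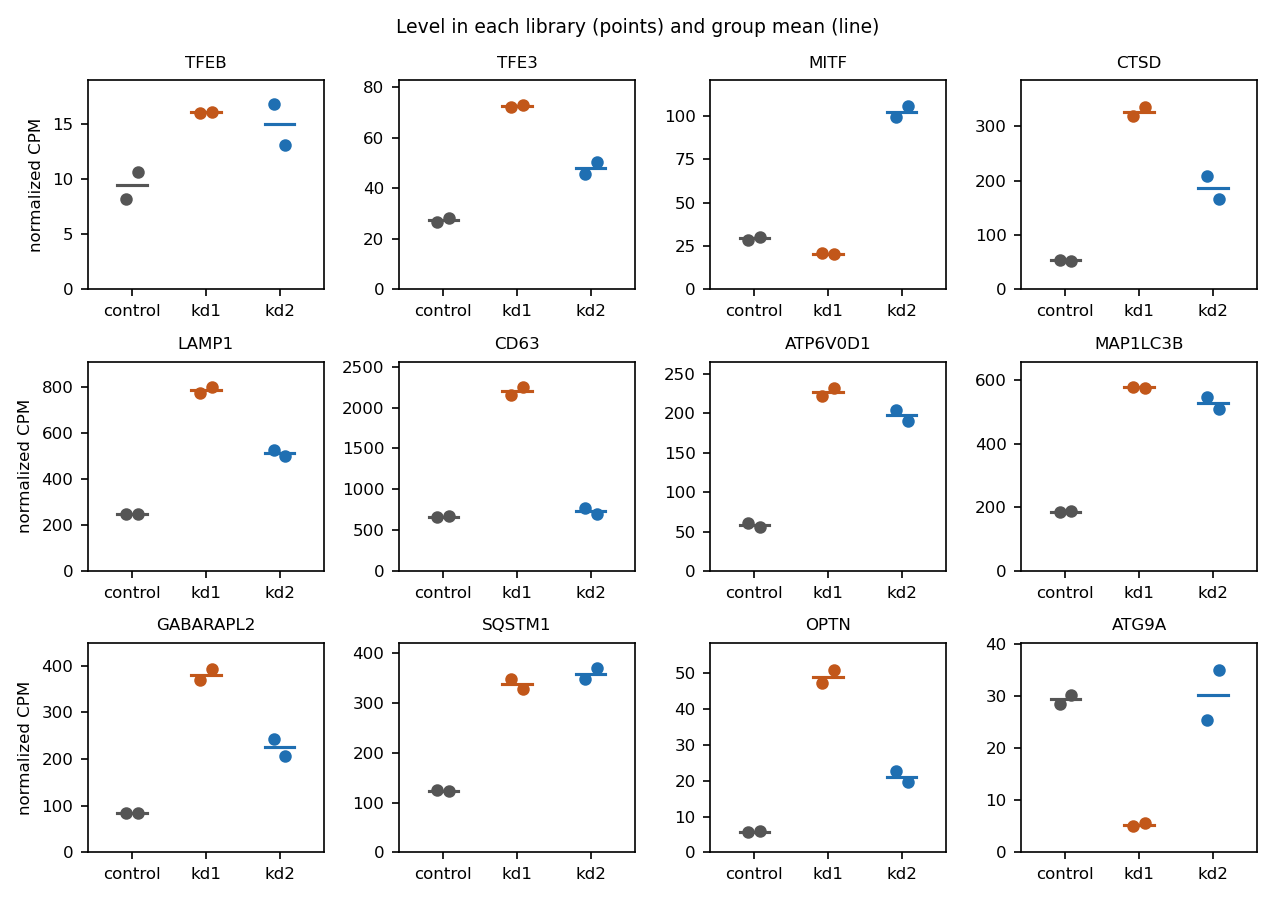
Normalized CPM (y axis, from 0, scaled for each gene) in the 2 libraries of each group (points) with the group mean (line) for 12 of the genes. In CTSD, LAMP1, GABARAPL2 and OPTN the first knockdown is highest, MITF is raised in the second knockdown alone (99.6 and 106 against at most 30.3 elsewhere), and ATG9A is low in the first alone (5.09 and 5.57).

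Per kilobase of canonical transcript, the levels in control cells ran from 651 normalized CPM for CD63 to 0.666 for GABARAP. After CD63 came PSAP at 251, ATP6AP1 at 116, LAMP1 at 91.7, and MAP1LC3B and GABARAPL2 at 87.0 and 86.7. CD63, PSAP and ATP6AP1 kept the first 3 places in both knockdowns. CTSD moved from place 22 in control cells to 8 in ZM11-kd1 and 10 in ZM11-kd2, while ATG9A moved from 39 to 49 in ZM11-kd1. The full canonical length was used, although CTSD, GABARAP and ATG9A share 62.1%, 52.4% and 48.6% of it with same-strand genes. How such shared reads were counted is not stated, so the places of these genes may not reflect expression alone.

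Within the list, the first and the second knockdown were then set against each other. Of the 49 genes, 14 were higher (28.6%) and 25 lower (51.0%) in ZM11-kd2 than in ZM11-kd1, beside 34.9% and 33.8% of all genes tested (68.8% in either direction). At 1.5-fold or more 8 were higher and 12 lower, beside 21.9% and 22.8% of all genes. The median log2 fold change between the knockdowns was -0.12 for the list and 0.022 for all genes. With library totals alone 19 of the 49 genes were higher and 16 lower, beside 42.8% and 27.3% of all genes. The median was then 0.059 for the list beside 0.21 for all genes.
The genes with the widest difference were ATG9A, higher in ZM11-kd2 by a log2 fold change of 2.50 (standard error 0.14, adjusted p = 1.70e-09, edgeR), and MITF, higher by 2.31 (standard error 0.07, adjusted p = 5.83e-12, edgeR). NPC1, LIPA, GLA and LAMP2 were higher in ZM11-kd2 by 1.25, 0.92, 0.80 and 0.78, of which LAMP2 went to 0.13 with GC and length trends removed. The lower value of CTSD in ZM11-kd2 (-0.81) likewise went to -0.17, and that of CD63 to -1.0055. Lower in ZM11-kd2 were GABARAP by a log2 fold change of -1.71, CD63 by -1.58 (standard error 0.06, adjusted p = 2.64e-11, edgeR), OPTN by -1.21, CTSL by -1.11 and NPC2 by -1.05. The soluble and membrane partners of cholesterol export thus differed between the knockdowns in opposite directions.
For 10 genes the difference between the knockdowns did not pass. Among them were SQSTM1, with a difference of 0.085 and a 95% interval of -0.085 to 0.26 on the log2 scale, GABARAPL1 with -0.12 to 0.24, CTSA with -0.24 to 0.10, CTSC with -0.26 to 0.37, and TFEB with the wide interval of -0.52 to 0.33. Without ZM11-kd2 replicate 1 the differences of SQSTM1 (0.12) and TFEB (-0.30) passed. With GC and length trends removed those of SQSTM1 (0.31), GABARAPL1 (0.12), CTSA (0.20) and TFEB (0.37) passed, and with library totals alone those of SQSTM1 (0.27), GABARAPL1 (0.24) and CTSC (0.24).

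**Figure D3:**
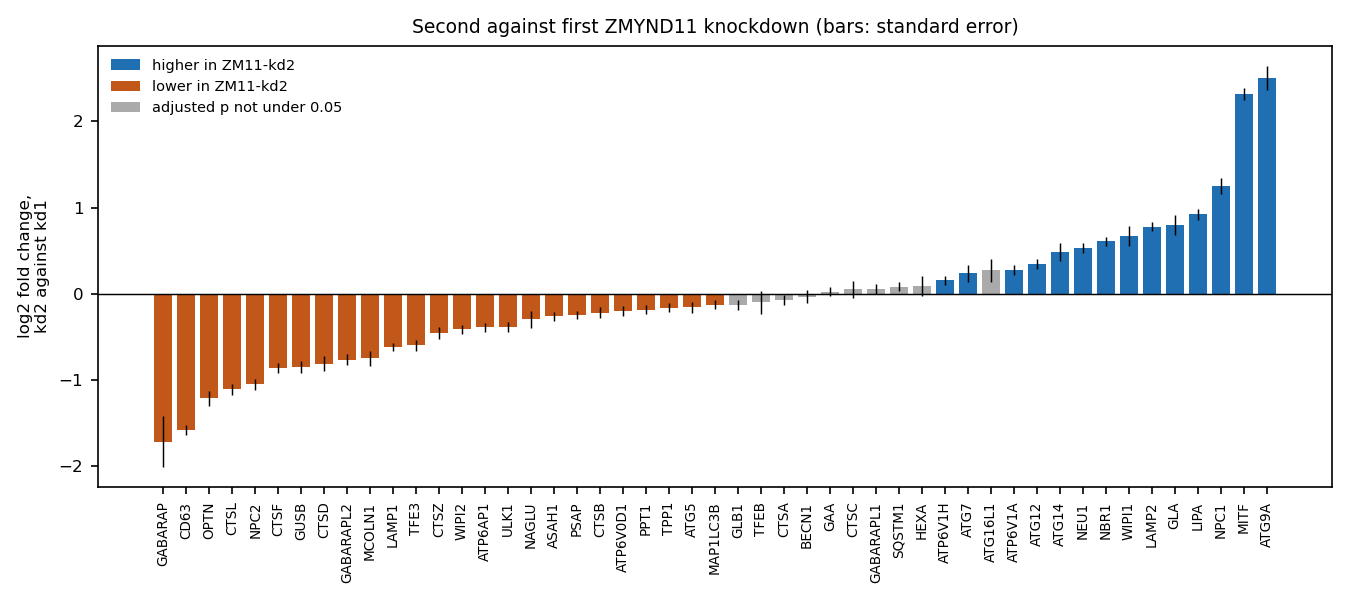
Log2 fold change of ZM11-kd2 against ZM11-kd1 (y axis) for each of the 49 genes in order (x axis), with bars of 1 standard error, blue where higher in ZM11-kd2, orange where lower and grey where the adjusted p was not under 0.05. The order runs from GABARAP at -1.71 and CD63 at -1.58 to MITF at 2.31 and ATG9A at 2.50.

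A further 133 genes of the same pathways were listed and 132 of them were tested. Of these, 75 rose (56.8%) and 43 fell (32.6%) in ZM11-kd1, and 79 rose (59.8%) and 27 fell (20.5%) in ZM11-kd2, with median log2 fold changes of 0.39 and 0.35. Among all genes tested 38.2% rose and 39.8% fell in ZM11-kd1, and 36.5% and 36.9% in ZM11-kd2, and the counts of each group that follows stand beside these shares. Of the 15 other proton pump subunits, 12 rose and 2 fell in each knockdown. ATP6V1G1, a stalk subunit, rose by 2.32 in ZM11-kd1 and 1.83 in ZM11-kd2, and ATP6V1C2, a subunit form with limited tissue range, fell by 1.24 and 1.33.
Of 21 genes for mTORC1 and its regulators on the lysosome, 15 rose and 4 fell in ZM11-kd1, and 12 rose and 3 fell in ZM11-kd2. RRAGC, a GTPase that brings mTORC1 to the lysosome, rose by 2.41 and 1.73 (it shares 44.1% of its canonical transcript with a same-strand gene), and MTOR, the kinase itself, fell by 1.61 and 0.84. Among 27 other hydrolases 14 rose and 8 fell in ZM11-kd1, and 13 rose and 9 fell in ZM11-kd2. SMPD1, the acid sphingomyelinase, rose by 2.61 and 1.34, and CTSV, a relative of CTSL counted at most 65 times in a library, fell by 1.29 and 3.08.
The 18 other lysosomal membrane proteins showed no majority in ZM11-kd1, where 8 rose and 9 fell, and had 8 higher and 4 lower in ZM11-kd2. OSTM1, the partner of a chloride transporter, rose by 0.82 and 2.17, and LAMP3 fell by 2.69 and 1.59. In enzyme sorting, 2 of 7 genes rose and 3 fell in ZM11-kd1, and 4 rose and 0 fell in ZM11-kd2, with GNPTG, a subunit of the enzyme that makes the mannose 6-phosphate tag, higher by 1.39 and 0.91.
Of 33 other autophagy factors, 16 rose (48.5%) and 14 fell (42.4%) in ZM11-kd1, beside 38.2% and 39.8% of all genes, and 20 rose (60.6%) and 8 fell (24.2%) in ZM11-kd2. The protease ATG4D, of a family that trims ATG8, rose by 1.78 and 1.27, and ULK2, a relative of ULK1, fell by 1.06 and 1.84. Of 11 other cargo receptors, 8 rose and 3 fell in ZM11-kd1, and 10 rose and 1 fell in ZM11-kd2. TOLLIP, a ubiquitin-binding adaptor, rose by 1.97 and 1.66, and TEX264, a receptor for the endoplasmic reticulum, fell by 0.25 and 0.48. These values are log2 fold changes that passed an adjusted p of 0.05 in edgeR, in ZM11-kd1 and ZM11-kd2 in that order.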

How the data were processed

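RNA of 22Rv1 cells was sequenced as poly(A) or rRNA-depleted libraries (the methods name both). The authors trimmed the reads, aligned them to hg38 with STAR 2.7.9a and deposited raw counts per gene symbol, without normalization. The submitters' processing notes also name FastQC 0.11.9 and HTSeq 0.13.5. The annotation, strand setting and treatment of shared reads are not given in the sources used here. Library totals of 26844128 to 38193748 counts set the precision of low genes, and replicates differed beyond sampling noise. The chi-square per degree of freedom was 2.37 in control, 3.97 in ZM11-kd1 and 10.7 in ZM11-kd2. The spread was fitted over the 3 groups together, so standard errors may be too small for ZM11-kd2.

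The main test was the quasi-likelihood test of edgeR 4.0.16 (R 4.3.3) without robust estimation, after filterByExpr and TMM scaling of the counts, in a single model of 3 groups with 3 residual degrees of freedom. Benjamini-Hochberg adjustment covered all 16510 genes that were kept. Standard errors are the size of the log2 fold change over the square root of F, and 95% intervals use 3 degrees of freedom. Positions and transcript lengths came from GENCODE 44, in which 32852 symbols were found by name and 240 through former symbols, leaving 2230 without a match. Members and lists were chosen with earlier results of these data known. The genes given in full are TFEB, TFE3, MITF, LAMP1, CTSD, SQSTM1, MAP1LC3B and, in each of 10 roles, those with the highest and lowest mean of both log2 fold changes against control. Members with opposite calls or a change of 1.5-fold in both knockdowns, and in each role of the other pathway genes the extremes called alike in both, are also named. Alternatives were DESeq2 1.42.0 (size factors, Wald test), library totals, removal of library-specific lowess trends with GC and length (span 0.3), other filters, a replicate block, only the groups compared, each library left out and, added after seeing the data, leaving out genes with over 10% same-strand overlap. Further prostate markers are not reported here. The functions were tested on simulated counts. Figures used matplotlib 3.10.9.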

Additional observations from a re-analysis of the deposited data

Results flagged for a closer look

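In 3 of the 49 genes the knockdowns were called in opposite directions against control. Since they were picked for that and both comparisons share the controls, the difference between the knockdowns was all but fixed by the choice, and it is given as a description with no test. For MITF the log2 fold change of ZM11-kd2 against ZM11-kd1 was 2.31, higher in 2 of 2 libraries, from -0.52 and 1.80 against control. For CTSL it was -1.11, lower in 2 of 2 libraries, from 0.45 and -0.66. For NBR1 it was 0.61, higher in 2 of 2 libraries, from -0.25 and 0.36. The value in ZM11-kd1 against control did not pass for MITF with GC and length trends removed (-0.027) or for CTSL with library totals alone (0.092), and that of NBR1 was 0.19 with GC and length trends removed, when the difference between the knockdowns was 0.27. The groups of 2 libraries are too small for a test of single outlying libraries.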

How the results depend on the processing

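Neither DESeq2 size factors nor the DESeq2 Wald test reversed a gene, and under the size factors all 49 genes kept their side of the threshold in each comparison. The Wald test ended 4 calls. With library totals alone, 14 members were lower in ZM11-kd1 than in control, beside 51% of all genes. Of these, 9 were lower by at least 1.5-fold, for which no share of all genes was taken on that scale. Between the knockdowns 16 were lower in ZM11-kd2, beside 27.3% of all genes. The medians were 0.44, 0.49 and 0.059 for ZM11-kd1, ZM11-kd2 and the difference between them. The member median was 0.75 in ZM11-kd1 and 0.63 in ZM11-kd2 with at least 10 counts in every library, 0.63 in ZM11-kd2 with GC and length trends removed, and 0.76 in ZM11-kd1 without the 6 genes of over 10% same-strand overlap. With each library left out in turn, medians ran from 0.78 to 0.91 in ZM11-kd1, from 0.70 to 0.77 in ZM11-kd2 and from -0.19 to -0.069 between them. Where a group was left with 1 library, that library was assumed to vary like the other groups. The cause of these moves was not tested.

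Some signs turned. With library totals alone the values in ZM11-kd1 were -0.23 for LAMP2, -0.33 for NAGLU, -0.097 for ATG7 and -0.053 for ATG16L1. In ZM11-kd2 they were -0.022 for CD63, -0.13 for ATG9A and -0.046 for GABARAP. Between the knockdowns they were 0.085 for TFEB, 0.11 for CTSA, 0.024 for TPP1, 0.061 for GLB1, 0.0018 for PPT1, 0.15 for BECN1, 0.028 for ATG5 and 0.059 for MAP1LC3B. With GC and length trends removed, values in ZM11-kd1 were 0.25 for NPC1, -0.63 for NAGLU and 0.19 for NBR1, and in ZM11-kd2 -0.003 for CD63, 0.068 for ATG14 and -0.019 for GABARAP. Between the knockdowns this gave 0.37 for TFEB, 0.20 for CTSA, -0.075 for CTSC, -0.23 for HEXA, 0.27 for NAGLU, 0.32 for ATP6V0D1, -0.16 for ATP6V1A, -0.016 for ATG7 and -0.19 for ATG12. With at least 10 counts in every library NAGLU was at -0.015 in ZM11-kd1.

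Leaving out 1 library at a time, signs turned for 5 values, whose ranges were -0.048 to 0.10 for NAGLU in ZM11-kd1 against control, -0.14 to 0.063 for ATG14 in ZM11-kd2 against control, -0.20 to 0.25 for ATG9A in ZM11-kd2 against control, -0.13 to 0.080 for BECN1 in ZM11-kd2 against ZM11-kd1 and -0.30 to 0.073 for TFEB in ZM11-kd2 against ZM11-kd1.

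Same-numbered libraries did not deviate together from their group means over all genes tested (correlations of 0.006, -0.026 and -0.044). Pairing in a part of the genes was not tested. With a replicate block, 34 members rose and 9 fell in ZM11-kd1, beside 37.3% and 38.7% of all genes. In ZM11-kd2 37 rose and 6 fell, beside 35.3% and 35.5%. Between the knockdowns 14 were higher and 23 lower in ZM11-kd2, beside 33.7% and 32.8%. The member medians were 0.79, 0.67 and -0.13. The calls of LAMP2 in ZM11-kd1, of CD63 in ZM11-kd2, and of ATG5 and MAP1LC3B between the knockdowns were lost.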
